A study of Mus musculus with 9 samples.

Results

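CatSper is the calcium channel of the sperm flagellum, and the levels of its subunit genes were described in whole testes of young mice. The 10 genes were taken by symbol from a table of 22337 genes, and each of them was present. The set was chosen by gene family with measured values in view, namely the FPKM and counts of Catspere1 and Catspere2 in KI-KI against WT-WT testes. They are the pore genes Catsper1, Catsper2, Catsper3 and Catsper4, and the auxiliary genes Catsperb, Catsperd, Catsperg1, Catsperg2, Catspere1 and Catspere2. RNA was sequenced from 9 testes of mice at 3 weeks of age. There were 3 testes of WT-WT mice, 3 of WT-KI mice carrying the R264W substitution on one Piwil4 allele, and 3 of KI-KI mice carrying it on both. PIWIL4 is a germline partner of small RNAs that silence transposons, and the substitution exchanges one of its arginines. It was placed in the mouse gene by CRISPR-Cas9 editing of C57BL/6 zygotes, so it is not limited to a cell type. No other allele and no treatment is given for any group.

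CatSper opens when the inside of the sperm becomes alkaline, and the calcium that enters drives the whip-like beat called hyperactivation. The related proteins CATSPER1 to CATSPER4 form the pore, and male mice that lack any of them are infertile. Around the pore sit auxiliary membrane proteins, CATSPERB, CATSPERD, CATSPERE and CATSPERG, whose large outer domains form a canopy over the channel. The mouse has a pair of genes for CATSPERG and a pair for CATSPERE. The channel works only in sperm, but its genes are transcribed earlier, in spermatocytes and round spermatids. At 3 weeks the first wave of spermatogenesis is reaching the round spermatid step.

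Each testis had between 17.96 and 24.28 M estimated counts in total. The stage of each testis is not given in the labels. It was therefore followed as a continuous score, the mean log2 CPM (counts scaled to library size, here with TMM factors) of 18 genes of round spermatids, none of them a CatSper gene. The score was 6.04, 2.6 and 1.36 in WT-WT testes 1 to 3, 5.08, 3.5 and 0.8 in WT-KI testes 1 to 3, and 2.35, 3.73 and 5.88 in KI-KI testes 1 to 3. The range within each genotype covered most of the range over all 9 testes. The 10 pachytene spermatocyte markers varied far less, with a mean log2 CPM between 9.04 and 9.41. The markers of testicular cell types were all detected, and the 6 epididymis markers summed to between 4.63 and 53.3 CPM, with the highest value in KI-KI testis 1. In RNA from whole testes, fewer cells of a type and less RNA per cell cannot be told apart.

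A promoter window of 250 bases before the start was taken from RefSeq (GRCm38.p6) for 8 of the 10 genes, the others being Catsper1 and Catsperg2. Those of 3 pore genes are shown as the sequence beside the levels described further on. In the following windows, written 5′ to 3′ on the strand of the gene, capitals mark each CpG. The Catsper2 window is chr2:121413793-121414042 on the minus strand, the Catsper3 window chr13:55784329-55784578 on the plus strand and the Catsper4 window chr4:134227384-134227633 on the minus strand.
Catsper2: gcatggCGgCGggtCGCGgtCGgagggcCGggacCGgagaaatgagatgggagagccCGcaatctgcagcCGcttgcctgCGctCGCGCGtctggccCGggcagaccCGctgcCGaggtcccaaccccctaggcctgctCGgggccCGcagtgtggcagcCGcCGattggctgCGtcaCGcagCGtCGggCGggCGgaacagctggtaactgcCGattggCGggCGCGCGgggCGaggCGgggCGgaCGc
Catsper3: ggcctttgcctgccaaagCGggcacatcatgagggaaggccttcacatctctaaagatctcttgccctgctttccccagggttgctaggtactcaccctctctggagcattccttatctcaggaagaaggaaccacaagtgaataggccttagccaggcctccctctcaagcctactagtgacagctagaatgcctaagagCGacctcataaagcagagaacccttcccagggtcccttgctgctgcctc
Catsper4: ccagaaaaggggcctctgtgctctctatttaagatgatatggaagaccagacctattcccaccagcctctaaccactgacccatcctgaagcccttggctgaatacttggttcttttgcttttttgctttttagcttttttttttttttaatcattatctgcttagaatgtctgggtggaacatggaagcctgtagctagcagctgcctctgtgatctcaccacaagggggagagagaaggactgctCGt
Catsper2 had 35 CpG and a GC content of 74.8%, and 3.0% of 32851 promoter windows of this length held at least as many CpG. Catsper3 had 2 CpG, and 29.0% of windows held that number or fewer. Catsper4 had 1 CpG, and 18.8% of windows held that number or fewer. The median window had 6 CpG. Among the 8 genes with a window, CpG number did not sort the members by how their levels varied, and a relation was not tested. Catsper1, without a window, could not be placed. Of the steadier genes, Catsperb had 1 CpG, Catspere1 had 5, and Catsperg1 had 5 and 7 in its windows. Catspere2 had 7 and 9, and Catsperd 25 and 11.

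Short motifs of factors active in meiotic and haploid germ cells were searched on both strands of the same windows, with overlapping matches counted. They were the cyclic AMP response element TGACGTCA and its half-site TGACG, the MYB site CAACNG or TAACNG, the X-box half-site GTTNCC bound by RFX factors, and the TATA box TATAAA. Catsper3, Catsper4 and Catspere1 held none of them. Catsper2 held 1 cyclic AMP half-site, 1 MYB site and 1 X-box half-site. The first of the Catsperd windows held 3 cyclic AMP half-sites and 25 CpG, and the other held 1 MYB site and 2 X-box half-sites. The first of the Catsperg1 windows held 4 X-box half-sites and 1 TATA box, and the other held 1 X-box half-site. The first of the Catspere2 windows held no match, and the other held 1 MYB site and 1 X-box half-site. Over all windows, TGACG was present in 17.8%, a MYB site in 43.1%, GTTNCC in 39.4%, TATAAA in 12.4% and TGACGTCA in 1.5%. Catsperb was the member richest in MYB sites, with 4, a number reached by 0.6% of windows. Its window, chr12:101404423-101404672 on the plus strand, is given with the letters of the MYB sites in capitals, the last 2 sites overlapping.
Catsperb: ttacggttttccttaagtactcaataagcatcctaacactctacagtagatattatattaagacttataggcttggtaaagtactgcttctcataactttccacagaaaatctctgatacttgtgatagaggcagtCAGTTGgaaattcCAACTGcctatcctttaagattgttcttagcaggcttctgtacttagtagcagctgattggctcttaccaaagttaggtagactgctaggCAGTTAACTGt
These matches are letters in a window, and binding was not measured.

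Catspere1 and Catspere2 lie next to each other on chromosome 1, and their windows are shown because the pair is near identical and had like levels in the testes. Both are on the plus strand, at chr1:177808169-177808418 for Catspere1 and chr1:177991148-177991397 for the first of the Catspere2 windows. Capitals mark bases that have no identical partner in the alignment.
Catspere1: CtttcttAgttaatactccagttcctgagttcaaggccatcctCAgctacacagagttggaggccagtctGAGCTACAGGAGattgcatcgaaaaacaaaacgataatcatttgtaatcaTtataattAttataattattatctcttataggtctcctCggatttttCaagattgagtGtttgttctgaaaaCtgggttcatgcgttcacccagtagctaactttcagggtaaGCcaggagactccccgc
Catspere2: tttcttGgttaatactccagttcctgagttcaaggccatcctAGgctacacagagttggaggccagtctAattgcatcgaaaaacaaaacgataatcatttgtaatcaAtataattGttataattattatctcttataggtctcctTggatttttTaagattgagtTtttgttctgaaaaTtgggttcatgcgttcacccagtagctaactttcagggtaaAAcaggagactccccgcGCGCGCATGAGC
The windows were 95% identical over 238 aligned bases. The longest transcripts in GENCODE M21 were 93.5% identical for Catspere1 and Catspere2, and 96.7% identical for Catsperg1 and Catsperg2, which are both on chromosome 7. Of all stretches of 150 bases in these transcripts, 4.7% of those of Catspere1 and 8.9% of those of Catsperg1 also occurred in the partner. GENCODE M21 lists Catspere1 as an unprocessed pseudogene, whereas RefSeq lists it as protein coding. The deposited counts of Catsperg1, Catsperg2, Catspere1, Catspere2 and Catsperb were never whole numbers, and those of the other members always were. The values of each pair are therefore uncertain as to how reads were divided between its genes. Catsper2 overlaps the gene model Gm14001 on its own strand and Pdia3 on the other strand, and Catsperb overlaps Gm24542. Catspere2 overlaps Gm8010 on its own strand and Gm37313 and Gm25312 on the other, and Catsperg1 overlaps Gm17113 on the other. How reads in these overlaps were assigned is not known, and the counts of Catsper2 were always whole.

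The members differed in level by about an order of magnitude in the typical testis. Levels between genes were compared as FPKM, in which fragments are scaled to transcript length and library size. Catsper2 had the highest level, with a median over 9 testes of 96.39 FPKM. Then came Catsperg2 at 44.29, Catsperd at 41.75, Catsperg1 at 36.66, Catsperb at 35.61, Catspere1 at 24.27 and Catspere2 at 23.74 FPKM. Catsper1 and Catsper4 each had a median of 9.97 FPKM and Catsper3 one of 8.23 FPKM. Neighbours in this order were compared within testes, as a mean log2 difference against its SD. Catsperg1 and Catsperb did not differ beyond the spread (0.09 ± 0.16, SD, n = 9), nor did Catsper1 and Catsper4 (-0.11 ± 0.21). Catsper4 and Catsper3 were at the edge of it (0.29 ± 0.29). Catsper2 was above Catsperg2 in 9 of 9 testes (1.12 ± 0.16).

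The pore genes did not keep a fixed ratio. Catsper1 had 27.41, 5.33 and 2.27 FPKM in WT-WT testes 1 to 3, 15.25, 10.33 and 1.35 FPKM in WT-KI testes 1 to 3, and 5.56, 9.97 and 24.52 FPKM in KI-KI testes 1 to 3. Its lowest and highest values were 20.3-fold apart, and within each genotype its order was the order of the score. Catsper3 had 25.78, 3.27 and 2.18 FPKM in the WT-WT testes, 15.71, 10.2 and 1.33 FPKM in the WT-KI testes, and 4.91, 8.23 and 19.98 FPKM in the KI-KI testes. Catsper4 had 28.68, 5.95 and 2.54 FPKM in the WT-WT testes, 15.59, 11.3 and 2.05 FPKM in the WT-KI testes, and 4.76, 9.97 and 26.8 FPKM in the KI-KI testes. For both genes too, WT-WT testis 1 was highest, WT-KI testis 3 was lowest, and the 3 genotypes overlapped. Catsper2 had 117.44, 97.65 and 78.61 FPKM in the WT-WT testes, 89.3, 105.68 and 74.41 FPKM in the WT-KI testes, and 94.98, 96.39 and 114.73 FPKM in the KI-KI testes. It had the same highest and lowest testis, but these were only 1.58-fold apart.
The FPKM of Catsper2 was thus 4.28 times that of Catsper1 in WT-WT testis 1, which had the highest score, and 55.1 times in WT-KI testis 3, which had the lowest.

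**Figure D1:**
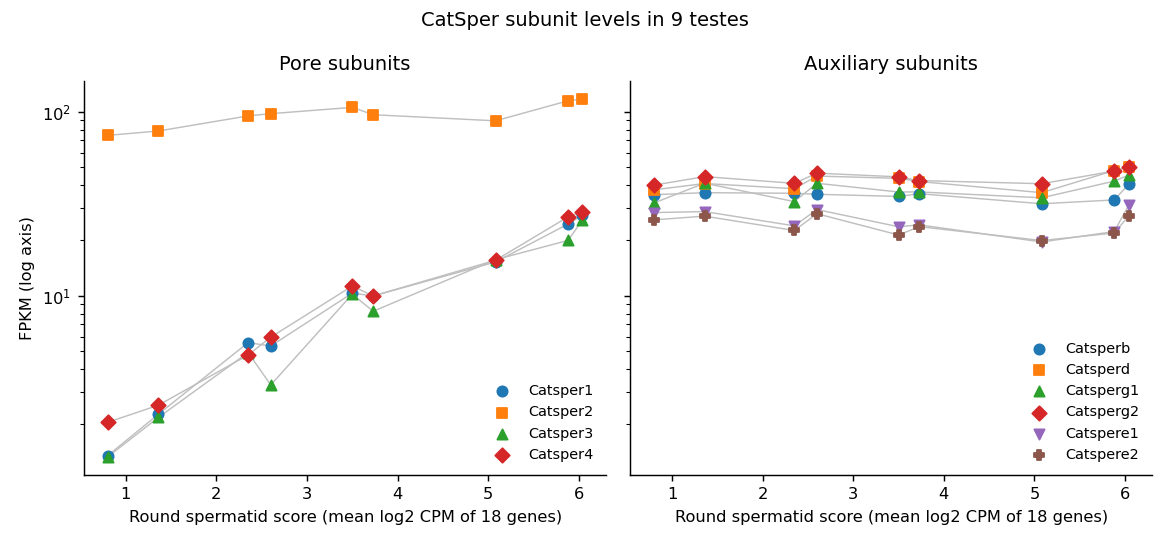
Level of each CatSper gene (FPKM, log axis) against the round spermatid score in 9 testes, with pore genes on the left and auxiliary genes on the right; each point is 1 testis and grey lines join the testes of a gene in order of score. Catsper1, Catsper3 and Catsper4 climb from between 1.33 and 2.05 FPKM at the lowest score to between 25.78 and 28.68 FPKM at the highest, while Catsper2 and the auxiliary genes stay within 1.58-fold.

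The auxiliary genes were steadier. Over the 9 testes Catsperb ranged from 31.62 to 40.32 FPKM, Catsperd from 36.33 to 49.83 FPKM, Catsperg1 from 31.92 to 45.29 FPKM and Catsperg2 from 39.9 to 50.06 FPKM. WT-WT testis 1 was the highest for each of them. The ratio of highest to lowest was between 1.25 for Catsperg2 and 1.58 for Catspere1.

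Testes with a higher score had more RNA of 7 of the 10 members, and of none of them less. The slope on the score was tested with edgeR over all 9 testes, with genotype in the model and Benjamini-Hochberg adjustment over 15771 genes. Among these genes, 17.3% were higher with the score at an adjusted p under 0.05 and 8.01% were lower. All 4 pore genes were called. The slopes, as log2 change of the level per unit of score, were 0.74 ± 0.045 (SE) for Catsper1 (adjusted p = 5.13e-08), 0.76 ± 0.052 for Catsper3 (adjusted p = 1.3e-07) and 0.73 ± 0.040 for Catsper4 (adjusted p = 1.7e-08). A called slope above 0.5 was reached by 4.64% of the genes tested and by these 3 members. Over the range of the score such slopes amount to a change of 14.8-fold for Catsper1, 16.1-fold for Catsper3 and 14.1-fold for Catsper4. Catsper2, the other pore gene, had a slope of 0.12 ± 0.024 (adjusted p = 0.00316), or 1.54-fold over the same range.

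Of the 6 auxiliary genes, 3 were called, all with slopes below that of Catsper2, and all 3 calls were lost with limma on log2(FPKM + 0.1). The slope was 0.081 ± 0.019 for Catsperg1 (adjusted p = 0.00775 by edgeR), 0.074 ± 0.022 for Catsperd (adjusted p = 0.0269) and 0.059 ± 0.018 for Catsperg2 (adjusted p = 0.0292). With limma it was 0.048 for Catsperg1 (adjusted p = 0.0748), 0.046 for Catsperd (adjusted p = 0.128) and 0.034 for Catsperg2 (adjusted p = 0.14). Catsperb had a slope of 0.023 ± 0.020 (adjusted p = 0.399). Catspere1 had a slope of -0.012 ± 0.026 (adjusted p = 0.763) and Catspere2 one of -0.017 ± 0.021 (adjusted p = 0.567). The 95% intervals of the last 2 ran from -0.067 to 0.044 for Catspere1 and from -0.063 to 0.028 for Catspere2, and that of Catsper1 from 0.64 to 0.84. Differences between slopes were not tested. The calls of Catsper1, Catsper3 and Catsper4 held with every testis left out in turn. The count of 7 was 3 without WT-WT testis 1, the testis with the highest score, and 4 without KI-KI testis 3, the next highest, and it was 3 without the 2 testes farthest from the median score.

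**Figure D2:**
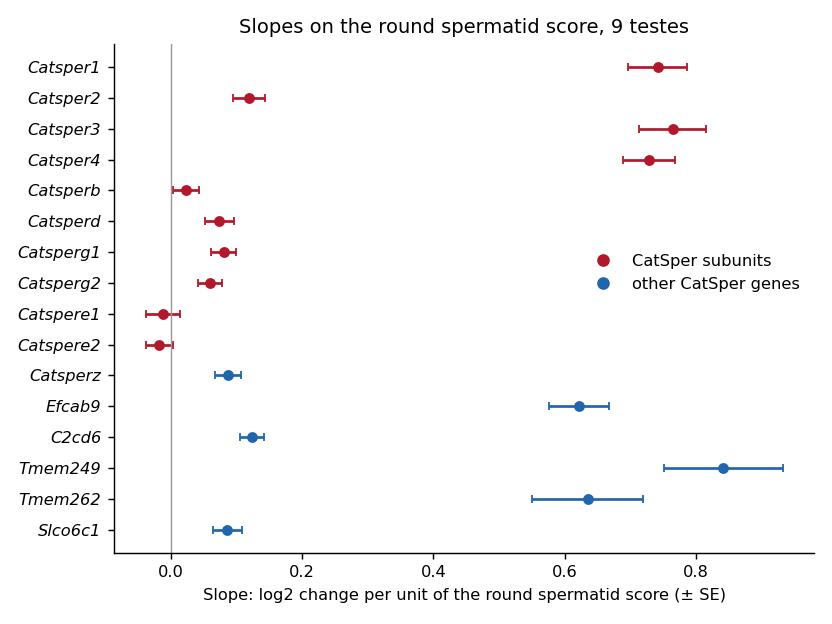
Slope on the round spermatid score (log2 change per unit of score; bars, SE) over 9 testes for the 10 CatSper genes in red and 6 genes of associated proteins in blue. Catsper1, Catsper3 and Catsper4 have slopes between 0.73 and 0.76, and the other members lie between -0.017 and 0.12.

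The genes of proteins found with the channel also had steep and shallow slopes. All 6 of 6 were higher with the score, against 17.3% of all genes tested. Tmem249 had a slope of 0.84 ± 0.090 (adjusted p = 1.23e-05 by edgeR), Tmem262 one of 0.63 ± 0.084 (adjusted p = 9.48e-05) and Efcab9 one of 0.62 ± 0.046 (adjusted p = 3.14e-07). EFCAB9 is a calcium-binding protein that, with CATSPERZ, tunes the channel to calcium and pH, and TMEM249 and TMEM262 are membrane components of the complex. The shallow slopes were those of C2cd6, which encodes a C2-domain protein needed for targeting of the channel to the flagellum (0.12 ± 0.018, adjusted p = 0.000212), Catsperz (0.087 ± 0.020, adjusted p = 0.00691) and the transporter gene Slco6c1 (0.086 ± 0.022, adjusted p = 0.0124).
Efcab9 and Catsperz, whose proteins act as partners, thus had different levels too, with 5.15 to 54.77 FPKM for Efcab9 and 187.69 to 262.79 FPKM for Catsperz over the 9 testes.
Of 13 other genes of sperm ion transport and calcium signalling, 10 were higher with the score and 0 lower, with a median slope of 0.23. The largest slope was that of Atp1a4, the sperm sodium pump (1.06 ± 0.040, adjusted p = 1.2e-09), and the smallest that of Atp2b4, a plasma membrane calcium pump (0.018 ± 0.016, adjusted p = 0.422). The median slope was 0.077 for the 10 members and -0.011 for all genes tested.

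Catspere1 and Catspere2 drew attention because they were slightly lower in KI-KI than in WT-WT testes, and the values of that pair of genotypes are given as a description without a test. Catspere1 had 31.01, 29.4 and 28.67 FPKM in the WT-WT testes, 19.6, 23.71 and 28.32 FPKM in the WT-KI testes, and 23.98, 24.27 and 22.33 FPKM in the KI-KI testes. Catspere2 had 27.18, 27.91 and 27.08 FPKM in the WT-WT testes, 19.95, 21.39 and 25.85 FPKM in the WT-KI testes, and 22.63, 23.74 and 21.93 FPKM in the KI-KI testes. For both genes the 3 KI-KI testes and the 3 WT-KI testes were all below the 3 WT-WT testes. By CPM, the same held for 3.43% of all genes with KI-KI and for 2.95% with WT-KI. For Catspere1 the gap between WT-KI and WT-WT was narrow, at 28.32 against 28.67 FPKM. The KI-KI and WT-KI testes overlapped. The summed counts of both genes do not depend on how reads were divided between the pair, and scaled to library size they were 211, 193 and 187 CPM in the WT-WT testes, 134, 152 and 178 CPM in the WT-KI testes, and 155, 162 and 156 CPM in the KI-KI testes.

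The log2 difference of KI-KI from WT-WT was -0.35 ± 0.086 (SE) for Catspere1 and -0.30 ± 0.068 for Catspere2. With the score as a covariate it was -0.36 ± 0.068 and -0.31 ± 0.067. Without KI-KI testis 1, which had the highest level of epididymis markers, it was -0.34 and -0.27. Of 15543 genes, 3.43% had all 3 KI-KI testes below all WT-WT testes by CPM, and 2.15% had them all above. The other 8 members overlapped between these genotypes, with values from -0.19 for Catsperg1 to 0.15 for Catsper1. With the score as a covariate, Catsperg1 was at -0.26 ± 0.067, Catsperg2 at -0.18 ± 0.060, Catsperd at -0.16 ± 0.065 and Catsperb at -0.13 ± 0.070. The pore genes were then at 0.14 for Catsper1, -0.020 for Catsper2, 0.13 for Catsper3 and 0.0079 for Catsper4. A lower value in KI-KI testes was thus not limited to Catspere1 and Catspere2. The errors of the steep pore genes were large, at 0.99 for Catsper1, 1.04 for Catsper3 and 1.01 for Catsper4, and with the score as a covariate they were 0.12, 0.16 and 0.10. With the chosen Catspere1 and Catspere2 included, the members had a median of -0.10, against -0.0050 for all genes. Of these members 6 were below 0 and 4 above.

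**Figure D3:**
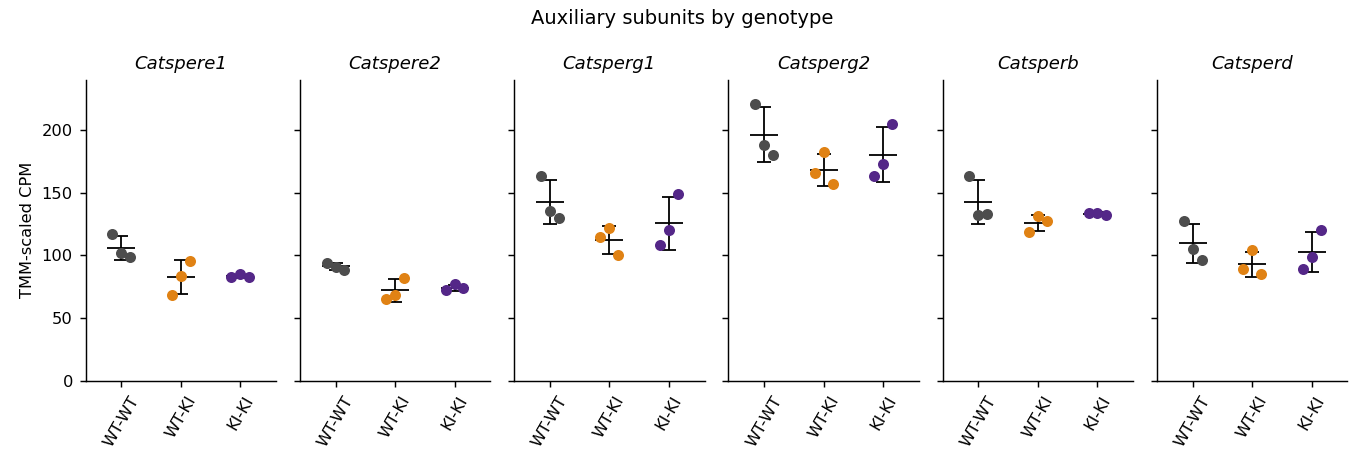
TMM-scaled CPM of the 6 auxiliary genes in each testis by genotype, with testes 1 to 3 from left to right; horizontal lines are means and bars SD (n = 3). The 3 KI-KI points of Catspere1 and Catspere2 lie below the 3 WT-WT points, and those of Catsperg1, Catsperg2, Catsperb and Catsperd overlap with them.

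WT-KI and WT-WT testes were compared to ask whether a single altered allele went with a difference. Catspere1 and Catspere2 were chosen on values of the same WT-WT testes, so their differences of -0.36 ± 0.14 and -0.35 ± 0.11 on the log2 scale are given without a test. Of the other 8 members, 0 passed the test of edgeR at an adjusted p under 0.05, where 0% of 15413 genes did, and DESeq2 called none either. With edgeR, 1 of these 8 had an unadjusted p under 0.05, against 1.11% of all genes. This was Catsperg1 at -0.36 ± 0.12 (unadjusted p = 0.0227, adjusted p = 1 by edgeR), lower in all 3 WT-KI testes. Its unadjusted p was 0.07 without WT-WT testis 1, 0.0502 without WT-KI testis 1 and 0.0738 without WT-KI testis 3, by edgeR. By the same test it was 0.048 without WT-WT testis 2, 0.0195 without WT-WT testis 3 and 0.0224 without WT-KI testis 2. With the score as a covariate it was 0.00308 by edgeR, and there too 0 genes had an adjusted p under 0.05. Catsperb and Catsperg1 had all 3 WT-KI testes below all WT-WT testes by CPM, as had 2.95% of all genes, and no member had them all above, as had 2.41%. For both, the exact two-sided permutation test gave p = 0.1, the smallest value that 3 against 3 allows.

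Catsperg1 had 45.29, 40.86 and 40.89 FPKM in the WT-WT testes, 34.07, 36.64 and 31.92 FPKM in the WT-KI testes, and 32.48, 36.66 and 41.97 FPKM in the KI-KI testes. Its KI-KI testes spanned the gap between the other genotypes. Catsperg2 had 50.06, 46.37 and 44.41 FPKM, 40.64, 44.29 and 39.9 FPKM, and 40.82, 42.26 and 47.61 FPKM in the same order. Catsperb had 40.32, 35.61 and 36.32 FPKM in the WT-WT testes, 31.62, 34.65 and 35.42 FPKM in the WT-KI testes, and 36.05, 35.86 and 33.17 FPKM in the KI-KI testes. Catsperd had 49.83, 44.71 and 40.74 FPKM, 36.33, 43.48 and 37.63 FPKM, and 38.19, 41.75 and 47.94 FPKM in the same order. The log2 difference of WT-KI from WT-WT was -0.23 ± 0.11 for Catsperg2, -0.19 ± 0.11 for Catsperb and -0.25 ± 0.13 for Catsperd. It was -0.18 ± 0.21 for Catsper2, -0.48 ± 1.10 for Catsper1, -0.29 ± 1.16 for Catsper3 and -0.45 ± 1.03 for Catsper4, and with the score as a covariate it was above 0 for Catsper3 (0.27) and Catsper4 (0.037). With the chosen Catspere1 and Catspere2 included, the members had a median of -0.32, against -0.019 for all genes.

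KI-KI and WT-KI testes were compared to ask whether altering both alleles differed from altering a single one. This comparison shares the KI-KI testes with the description above, so Catspere1 and Catspere2 are again given without a test. Of the other 8 members, 0 had an adjusted p under 0.05 with edgeR, where 0% of 15463 genes did, and 0 had an unadjusted p under 0.05, against 2.22% of genes. DESeq2 called none of them either. With the chosen Catspere1 and Catspere2 included, the members had a median difference of 0.15, against 0.0062 for all genes. The differences ran from 0.016 ± 0.12 for Catspere1 to 0.62 ± 0.87 for Catsper1 on the log2 scale. The difference of Catspere2 was 0.047 ± 0.10. Catsperb was the only member with all KI-KI testes above all WT-KI testes by CPM (0.084 ± 0.066, exact permutation p = 0.1), as were 3.34% of genes.
None of the 6 genes of associated proteins and none of the 13 other signalling genes had an adjusted p under 0.05 in this comparison or between WT-KI and WT-WT by edgeR, and 0 had an unadjusted p under 0.05.

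**Figure D4:**
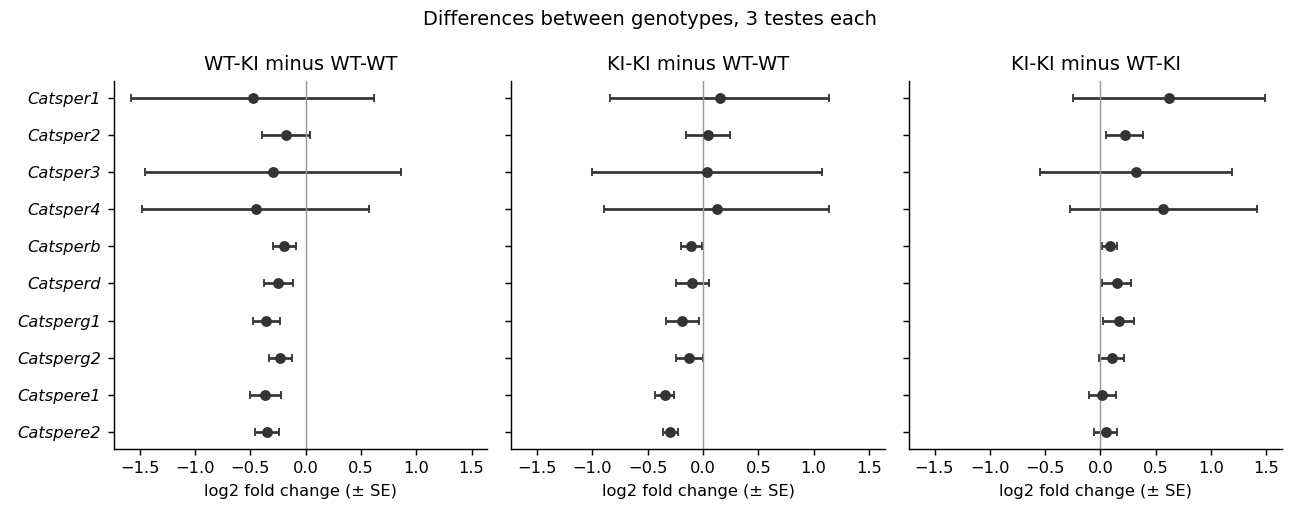
Log2 fold change of the 10 CatSper genes (bars, SE) between each pair of genotypes, 3 testes each. Catspere1 and Catspere2 lie between -0.36 and -0.30 in both panels with WT-WT, and the bars of Catsper1, Catsper3 and Catsper4 span 0 in every panel.

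Within the pairs of near-identical genes, both members were transcribed at like levels. Catsperg1 was lower than Catsperg2 in 9 of 9 testes, by 0.22 ± 0.075 (SD) on the log2(FPKM + 0.1) scale, or a ratio of 0.857 (exact two-sided sign-flip permutation p = 0.00391, adjusted over the 2 pairs 0.00781). Catspere1 was higher than Catspere2 in 8 of 9 testes, by 0.082 ± 0.067, or a ratio of 1.06 (exact permutation p = 0.00781, adjusted 0.00781). The exception was WT-KI testis 1. A small p here shows only that a difference recurred across testes. How far it came from the way reads were divided between the genes was not tested. From counts, without correction for length, the differences were -0.52 and 0.19. The summed counts of Catsperg1 and Catsperg2 were 384, 324 and 311 CPM in the WT-WT testes, 281, 304 and 257 CPM in the WT-KI testes, and 271, 293 and 354 CPM in the KI-KI testes.

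The genes whose levels most resembled those of the members were ranked by Pearson's r of log2 CPM over the same 9 testes, among 15743 genes, as a description. For the mean of the standardised members they were Stag3 (r = 0.983), Pask (0.978), Nol4l (0.975), Slc9b1 (0.97) and Ttll5 (0.969). Stag3 encodes a meiotic cohesin subunit, Slc9b1 a sodium-proton exchanger of sperm and Ttll5 a tubulin glutamylase. For Catspere1 they were 4933402N22Rik (0.949), Mettl23 (0.924) and Gm29666 (0.922), and for Catspere2 they were the glucose transporter gene Slc2a3 (0.964), Iqcc (0.951) and Cdc42ep3 (0.939). No gene was shared between the lists of 3.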

How the data were processed

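Total RNA of whole testes was extracted with TRIzol and sequenced as 150 bp paired-end reads. The authors filtered the reads with fastp (version 0.18.0) and used StringTie (version 1.3.1) to assemble the mapped reads and to compute FPKM. The submitters' processing notes name the mm39 build, and the aligner, the annotation and the tool behind the estimated counts are not given in the sources used here. The authors deposited an FPKM value with 2 decimals and an estimated count, not scaled, for each gene and testis. Of the deposited estimated counts, 89.2% were whole. They were rounded, filtered with filterByExpr, scaled by TMM and tested with edgeR (version 4.0.16, quasi-likelihood, two-sided, Benjamini-Hochberg adjustment over all genes tested) in R (version 4.3.3). Log2 CPM, as in the score, used a prior count of 1, and CPM given as levels used none. Results were recomputed with DESeq2 (version 1.42.0), with its size factors in edgeR, with limma (version 3.58.1) after log2 transformation of FPKM plus a pseudocount of 0.1 or 1 (mean FPKM of 0.5 or more), with no filter, with at least 10 counts in every library, with the score as a covariate, with all libraries in a single fit and with each testis left out. Groups came from the sample labels. The replicates are separate samples in the labels, which do not say in words that each is a different animal, so p-values measure the spread between these samples. The 10 members, the marker lists and the lists of associated and signalling genes were chosen with earlier results of these data known. The text names all members, all associated genes, the signalling genes with the largest and smallest slope, and the genes most alike in pattern. In GENCODE M21, 22232 of the gene identifiers were found. Promoter windows are those of the RefSeq table, and no gene coordinates are given because that build differs from the files'.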

Additional observations from a re-analysis of the deposited data

How the results depend on the processing

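Of 713 values recomputed under an alternative setting, 648 were taken as unchanged. These kept their direction and their side of the threshold, or moved by less than the spread between testes. A count of called members was also taken as unchanged when it stayed near the main count, as with 5 or 6 against 7. The number of members higher with the score was 7, and it was 4 with limma on log2(FPKM + 0.1), 4 on log2(FPKM + 1) and 3 without the 2 testes farthest from the median score. With each testis left out it ran from 3 to 7. The call of Catsper2 was lost without WT-WT testis 1 (slope 0.107) and without the 2 farthest testes (slope 0.085), and those of Catsperd, Catsperg1 and Catsperg2 were lost in more settings. The cause was not tested.

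Slopes that crossed 0 were those of members that had not passed the test. Catsperb had -0.0046 with limma on log2(FPKM + 0.1), -0.0045 on log2(FPKM + 1), -0.0171 without the 2 farthest testes, and -0.0123 to 0.0384 with each testis left out. Catspere1 had 0.1373 on the pachytene spermatocyte score and -0.0587 to 0.0178 with each testis left out. Catspere2 had 0.0013 without the 2 farthest testes and -0.042 to 0.0072 with each testis left out.

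Between WT-KI and WT-WT, Catsper3 was at 0.0759 and 0.0873 with limma on log2(FPKM + 0.1) and log2(FPKM + 1), at 0.2729 with the score as covariate and at 0.0313 with the replicate block, and Catsper4 at 0.0371 with the score. With each testis left out, Catsper1 ran from -1.1078 to 1.2426, Catsper2 from -0.3327 to 0.0337, Catsper3 from -0.9483 to 1.7583 and Catsper4 from -0.9844 to 1.2024. Between KI-KI and WT-KI, Catsper3 was at -0.078 and Catsper4 at -0.0123 with the score, and Catspere1 at -0.0061 and -0.0064 with limma on log2(FPKM + 0.1) and log2(FPKM + 1). With each testis left out, Catsper1 ran from -0.2179 to 1.2488, Catsper3 from -0.4813 to 0.9743, Catsper4 from -0.4014 to 1.0973, Catsperg2 from -0.008 to 0.167, Catspere1 from -0.0962 to 0.1341 and Catspere2 from -0.0145 to 0.1543. Catspere1 and Catspere2 are given here without a test, and none of the values of the other members passed the test in any setting.

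Between KI-KI and WT-WT, the values of the steep pore genes depended on single testes. With each testis left out, Catsper1 ran from -0.69 to 1.86, Catsper3 from -0.77 to 2.08 and Catsper4 from -0.85 to 1.77. The highest values were those without WT-WT testis 1, the testis with the highest score.

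Same-numbered testes of different genotypes did not deviate together throughout, with correlations from -0.73 to 0.78. Between WT-WT and WT-KI the correlations were 0.71, -0.07 and 0.78 for testes 1 to 3, and those with KI-KI testes ran from -0.73 to 0.07. The labels do not say whether the numbers pair the testes. With the replicate block, 7 members were higher with the score. Of the members tested between genotypes, 0 were called between WT-KI and WT-WT or between KI-KI and WT-KI. The block thus changed no call. The lowest count of any member in a testis was 33, for Catsper3, against a floor of 3 counts.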

Other observations

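The 10 pachytene spermatocyte markers gave a comparison for the shallow slopes of the members, described after their values were seen. Of these markers, 5 were higher with the score and 1 was lower, by edgeR, against 17.3% and 8.01% of all genes tested. Pgk2, the spermatogenic phosphoglycerate kinase, had the largest slope (0.21 ± 0.022, adjusted p = 1.28e-05), and Mybl1, a transcription factor of pachytene spermatocytes, was lower with the score (-0.059 ± 0.018, adjusted p = 0.0321). The median slope of the list was 0.048, against 0.077 for the CatSper genes and -0.011 for all genes. In neither WT-KI against WT-WT nor KI-KI against WT-KI did a gene of the list have an adjusted p under 0.05. Such a value was reached by 0% of all genes tested in each comparison, so the lack of calls says nothing particular to the list.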
